A study of Drosophila melanogaster with 46 samples.

Results

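The line difference described here is that between middle-aged females of the SR line, selected for resistance to starvation, and of its control line C, both kept as adults on malnutrition. It was taken from the arrays whose labels name both the line, the malnutrition diet and middle age, which are 8 of the 46 arrays of the series: 4 of SR flies and 4 of C flies. Whole virgin Drosophila melanogaster females were pooled by 5, and the RNA of each pool was read on 1 Affymetrix Drosophila Genome 2.0 array. All flies grew up as larvae on standard medium, and as adults those of malnutrition received medium with yeast and sugar at 0.5 times the standard concentration, those of optimal food at 2 times and those of overfeeding at 5 times. Middle age was the time at which 90% of a cohort was alive and old age that at which 10% was alive, so both lines were compared at the same survival and their days of age may differ. For comparison the same line difference was taken in middle-aged flies on optimal food (8 arrays), in middle-aged flies on overfeeding (8 arrays) and in old flies on malnutrition (7 arrays, 3 of them of C flies).

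Each regime is represented by 1 line, the SR line having been chosen among several lines by the study, so a difference between these lines cannot be told apart from one between any 2 lines kept separately for the same time. Replicates are pools of flies of 1 line, and p-values measure the spread between pools. The deposited values are RMA log2 expression values, in which a difference of 1 is a doubling, and a level near 4 lies at the low end of the scale (the lower quartile of all values was 3.79). One mean per group was fitted to all 46 arrays with limma, and p-values received a Benjamini-Hochberg adjustment across all 18952 probe sets. Called, or passed, means an adjusted p under 0.05. Differences are SR minus C on the log2 scale, given with ± their standard error, and levels with ± the SD of the arrays.

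Selection for starvation resistance is known to act on stores and their use: flies lay down fat and glycogen in the fat body, digest food in the midgut with serine proteases, maltases and lipases, and clear plant toxins and metabolic waste with cytochrome P450 enzymes, glutathione S-transferases and UDP-glycosyltransferases. Peptides against bacteria and fungi are made mostly in the fat body under the Toll and Imd pathways. Levels from whole flies add up all organs, so fewer cells of a type and less RNA per cell cannot be told apart.

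The C arrays differed more among themselves than the SR arrays, and SR replicate 4 stood apart from the other SR arrays. Median log2 values of the arrays were between 5.10 and 5.25. An array correlated with the others of its group at r = 0.996 to 0.997 in SR flies and 0.992 to 0.994 in C flies, and with those of the other line at 0.989 to 0.992 (over all probe sets, which are no replicates). In SR replicate 4 the 3′ minus 5′ difference, a sign of RNA quality, was 2.01 for GAPDH and 2.06 for actin, against 1.75 to 1.88 and 1.63 to 1.72 in the other SR arrays and up to 1.85 and 2.04 in the C arrays. Weights estimated from the spread of each array were 1.96 to 2.25 in SR replicates 1 to 3, 0.85 in SR replicate 4 and 0.54 (C replicate 2) to 1.04 in the C arrays. No array lay closer to another of its group than 0.12 in log2 on average. C replicate 2 had the highest mean of the neuron markers (7.21, against 6.61 to 6.97 in the other 7 arrays), of the photoreceptor markers (9.18, against 8.35 to 8.61) and of the muscle markers (10.68, against 9.73 to 10.26). The female germline markers, at 10.17 to 10.55, were high in every array, and those of the male accessory gland and testis, at 3.58 to 3.77, were at the low end in every array, as the virgin females of the study's methods imply.

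In total 647 of 18952 probe sets passed (3.41%), 302 of them higher (46.7%) and 345 lower in SR flies. After centring each array on the neuron markers 155 were higher (35.4%) and 283 lower. At an unadjusted p under 0.05 there were 2384. A log2 difference of 1 or more was reached by 71 of the higher and 107 of the lower probe sets, and the median size among those called was 0.71. The values of the 4 SR arrays and the 4 C arrays did not overlap for 607 of the 647, a separation that 10.1% of all probe sets showed. With 1 probe set per gene, 1.91% of 11982 genes were higher in SR flies and 2.2% lower, 4.11% in all, and these are the shares against which the counts of gene lists are to be read. The number of calls ran from 454 to 683 when each of the 8 arrays was left out in turn, being 500 without C replicate 2 and 454 without SR replicate 4, and 331 of the 647 passed in each of these 8 fits.

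The largest difference of a named gene was that of CG31157, a gene of unknown role, which was near the low end of the scale in C flies and high in SR flies. Its log2 values were 9.85, 10.11, 10.84 and 10.91 in the SR arrays and 4.95, 4.74, 4.45 and 4.49 in the C arrays. The groups were more than 4 units apart at their nearest values and the mean difference was 5.77 ± 0.24 (adjusted p = 4.65e-20). The gene next to it among the measured genes, CG7966, an ortholog of the mammalian selenium-binding protein, was also higher in SR flies, with 9.57 to 10.11 in the SR arrays against 7.76 to 8.07 in the C arrays (difference 1.93 ± 0.15, adjusted p = 8.67e-12). Both differences were found again in each of the other conditions, with values of 5.83, 5.53 and 5.59 for CG31157 and of 2.46, 2.25 and 1.40 for CG7966 on optimal food, on overfeeding and in old flies on malnutrition, each of them called.

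**Figure D1:**
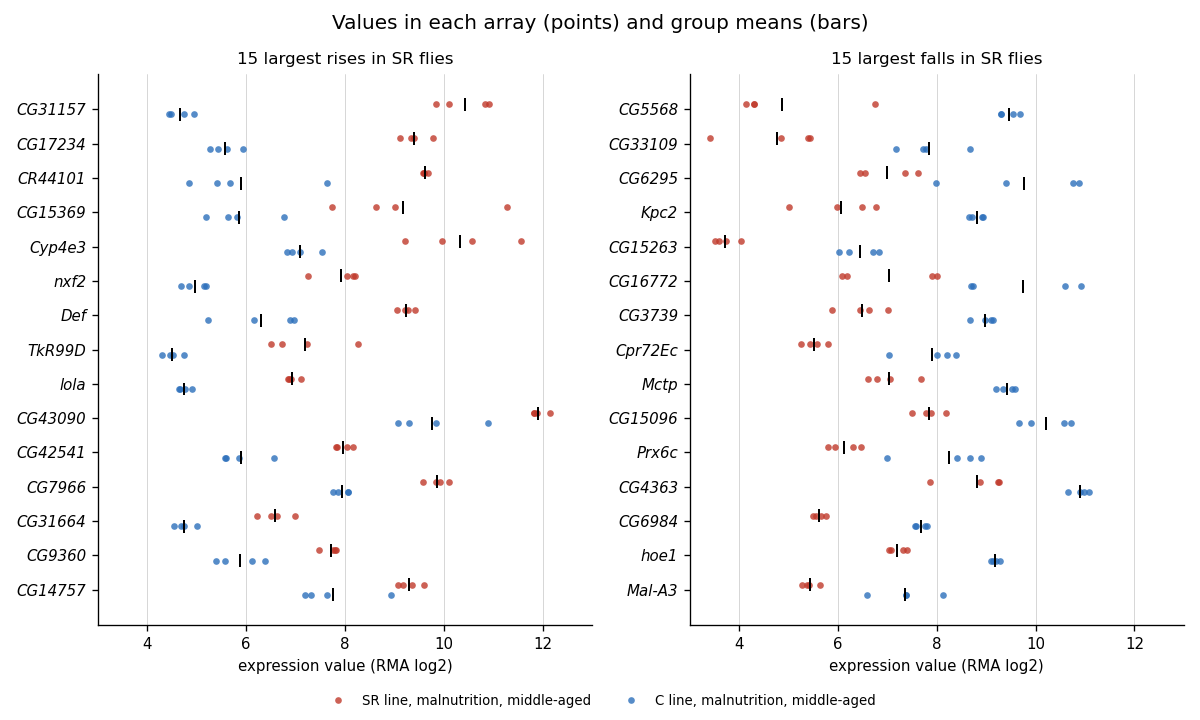
RMA log2 values of the 15 genes with the largest differences in each direction; points are the 4 SR arrays (red) and the 4 C arrays (blue) of middle-aged flies on malnutrition, and bars are group means. The arrays of both lines are apart for each gene, which was a condition for naming it; CG31157 has the widest gap, and C replicate 2 comes close to the SR arrays for CG14757.

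Genes of defence, signalling and RNA biology were among those higher in SR flies. Def, which encodes the antibacterial peptide defensin, had log2 values of 9.42, 9.28, 9.22 and 9.05 in the SR arrays and of 5.22, 6.89, 6.16 and 6.97 in the C arrays. The SR arrays lay close together and all above the C arrays (difference 2.94 ± 0.36, a 7.65-fold higher value, adjusted p = 3.38e-07). TkR99D, a receptor for tachykinin neuropeptides, was higher by 2.68 ± 0.45 (adjusted p = 0.000113), with 6.51 to 8.27 in SR flies against 4.29 to 4.73. The export factor gene nxf2, whose product takes part in the silencing of transposons by piRNAs in the ovary, was higher by 2.95 ± 0.26 (adjusted p = 1.32e-10), with 8.20, 8.15, 8.05 and 7.26 against 5.19, 4.67, 4.85 and 5.14. One of the 15 probe sets of lola, a transcription factor gene with many splice forms, was higher by 2.19 ± 0.23 (adjusted p = 1.68e-08). Of its other 14 probe sets 1 passed, at 0.51, and the rest had differences from -0.40 to 0.30.

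A trypsin-like serine protease gene and a P450 gene were higher in middle-aged SR flies on malnutrition by wide margins. CG17234, the protease gene, had 9.13, 9.78, 9.33 and 9.39 in the SR arrays and 5.27, 5.93, 5.61 and 5.44 in the C arrays. Within each line its arrays were close, and the difference was 3.84 ± 0.84 (adjusted p = 0.00353), the standard error being set also by its wide spread in other groups. On optimal food and on overfeeding its differences were 1.11 and 0.10 and did not pass, while in old flies on malnutrition it was 3.12 and passed. Cyp4e3, a cytochrome P450 gene, had 9.22, 9.96, 10.58 and 11.57 against 7.53, 6.93, 7.09 and 6.82 (difference 3.24 ± 0.58, adjusted p = 0.000272). Its C level on malnutrition at middle age, 7.09 ± 0.31 (n = 4), was lower than the C mean in each of the other 3 conditions, where it was 9.85 to 10.02. The line difference of Cyp4e3 was 2.07 on overfeeding, which passed. It was 1.47 on optimal food and -0.16 in old flies on malnutrition, neither of which passed. The change of 1.77 in its line difference between malnutrition and optimal food did not pass either (adjusted p = 0.194).

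Of the other genes with the largest higher values, CG15369 (3.32 ± 0.57), CG43090 (2.15 ± 0.32), CG42541 (2.07 ± 0.24), CG31664 (1.85 ± 0.22), CG9360, a short-chain dehydrogenase (1.84 ± 0.24), and the non-coding CR44101 (3.73 ± 0.39) had adjusted p-values of 0.000164 or less. CG15369 spread most among the SR arrays, from 7.74 to 11.28, and was at 5.19 to 6.76 in C flies. Only 1 of the 3 probe sets of CG42541 differed, the others lying under 5 in both lines with differences of 0.03 and 0.01. CG14757 was higher by 1.54 ± 0.42 (adjusted p = 0.0254), with 8.92 in C replicate 2 against 7.19 to 7.63 in the other C arrays. Its call was lost, at adjusted p-values of 0.0534 to 0.109, without C replicate 1, 3 or 4 or without SR replicate 2, 3 or 4.

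The genes with the largest lower values in SR flies included enzymes of digestion and metabolism. CG5568 had log2 values of 4.13, 4.31, 6.75 and 4.30 in the SR arrays and of 9.30, 9.29, 9.68 and 9.54 in the C arrays. SR replicate 3 stood apart from the other SR arrays but below every C array, and the difference was -4.58 ± 0.50 (adjusted p = 2.69e-08). The lipase gene CG6295 had 6.44, 7.35, 7.62 and 6.54 against 10.76, 10.88, 7.99 and 9.40 (-2.77 ± 0.50, adjusted p = 0.000324), C replicate 3 coming close to the SR arrays. Mal-A3, a maltase that splits sugars in the gut, had 5.63, 5.26, 5.42 and 5.38 against 7.37, 8.12, 6.58 and 7.38 (-1.94 ± 0.39, adjusted p = 0.00156). Prx6c, a peroxiredoxin that removes peroxides, had 5.80 to 6.48 against 6.99 to 8.89 (-2.11 ± 0.42, adjusted p = 0.00129).

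Some of these lower genes varied little within each line. The values of hoe1 were 7.31, 7.39, 7.04 and 7.07 in the SR arrays and 9.27, 9.10, 9.13 and 9.19 in the C arrays (-1.97 ± 0.13, adjusted p = 2.10e-13), and CG6984 was at 5.50 to 5.75 against 7.56 to 7.80 (-2.06 ± 0.20, adjusted p = 1.78e-09). Mctp, a membrane protein with C2 domains, had 6.60 to 7.67 against 9.20 to 9.59 (-2.38 ± 0.25, adjusted p = 1.74e-08), and its other probe set lay near 3.5 in both lines. Lower values were also found for CG33109 (-3.06), Kpc2 (-2.74), CG15263 (-2.73), CG16772 (-2.69), CG3739 (-2.48), the cuticle gene Cpr72Ec (-2.39), CG15096 (-2.38) and CG4363 (-2.10), with adjusted p-values from 8.67e-12 to 0.00215. The call of each gene of the 15 largest differences in either direction held in every alternative fit, with CG14757 as the exception above. The largest lower value of all, -5.02 ± 0.53, was that of a probe set for which the annotation lists no gene (4.20 in SR and 9.22 in C flies), and 77 of the 647 calls had no listed gene.

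In the immune system a defensin and an attacin gene went opposite ways. Of 19 measured genes of antimicrobial peptides, 1 was higher in SR flies (Def), 1 was lower and 17 did not pass (10.5% called, against 4.11% of all genes), with a list median of -0.03, which turned to 0.01 after median centring. The lower one was BomT3, a peptide of the Bomanin family made under the Toll pathway, with 10.27 to 10.78 against 11.22 to 11.76 (-1.06 ± 0.30, adjusted p = 0.0391). AttA, an attacin against Gram-negative bacteria, was named through tables of the study and is not counted in the list. Its 4 SR values were 5.53, 4.74, 5.32 and 5.74 and its C values 9.65, 7.17, 7.43 and 9.28, so that C replicates 1 and 4 were highest and no SR array reached a C array (-3.05 ± 0.67, adjusted p = 0.00362). A further probe set of AttA gave -2.20 ± 0.51 (adjusted p = 0.00683), not called without C replicate 1 (adjusted p = 0.0537). Both may also read the near-identical AttB, and the study chose AttA on arrays of this series. AttC (-0.42 ± 0.50), DptB (-0.81 ± 0.48) and the recognition protein PGRP-SB1 (-0.32 ± 0.37) did not pass.

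Of 38 measured genes of immune recognition and signalling, 1 passed (2.63%, against 4.11% of all genes). This was SPE, the protease that cleaves the Toll ligand Spätzle, lower in SR flies with 9.11 to 9.54 against 9.88 to 10.91 (-1.17 ± 0.30, adjusted p = 0.0174). The call of SPE was lost without C replicate 1 or 2 or SR replicate 3 or 4, with an adjusted p of up to 0.0955, and that of BomT3 in 6 of the 8 fits without 1 array, with an adjusted p of up to 0.14. The fat body markers had means of 9.24 to 9.45 in the SR arrays, 10.01 and 9.96 in C replicates 1 and 2 and 9.34 and 9.43 in C replicates 3 and 4. Of their 15 genes 2 passed (13.3%, against 4.11% of all genes), both lower (CG2233 and Fbp1), and their part in these results was not tested.

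With all 8 arrays, cuticle protein genes that passed were all lower in SR flies on malnutrition. Of 104 measured members of the Cpr, Twdl and Lcp families, whose products bind chitin in the outer cover of the fly, 12 were lower (11.5%, against 2.2% of all genes), none was higher and 92 did not pass. The list median was -0.11 against 0.01 over all genes, and was below 0 under each scaling tried. Cpr72Ec had 5.79, 5.58, 5.26 and 5.44 in the SR arrays and 7.04 to 8.39 in the C arrays, a 5.24-fold lower value in SR flies (-2.39 ± 0.28, adjusted p = 1.79e-07). TwdlN had 4.21, 4.42, 4.82 and 4.65 against 5.94, 6.11, 6.42 and 6.64 (-1.76 ± 0.15, adjusted p = 6.42e-11). Cpr64Aa (-1.05 ± 0.19) and Twdlbeta (-0.94 ± 0.24) followed, the latter losing its call without C replicate 3 (adjusted p = 0.0734). Most of these genes were dim: the C means of the 12 ran from 3.76 to 7.91 and the SR means from 3.15 to 5.52. When only probe sets with a mean of at least 5 over all arrays were tested, 3 members were called lower, and after neuron centring 6. Without C replicate 2 there were 14, and without SR replicate 4 there were 10 and 1 member was called higher.

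**Figure D2:**
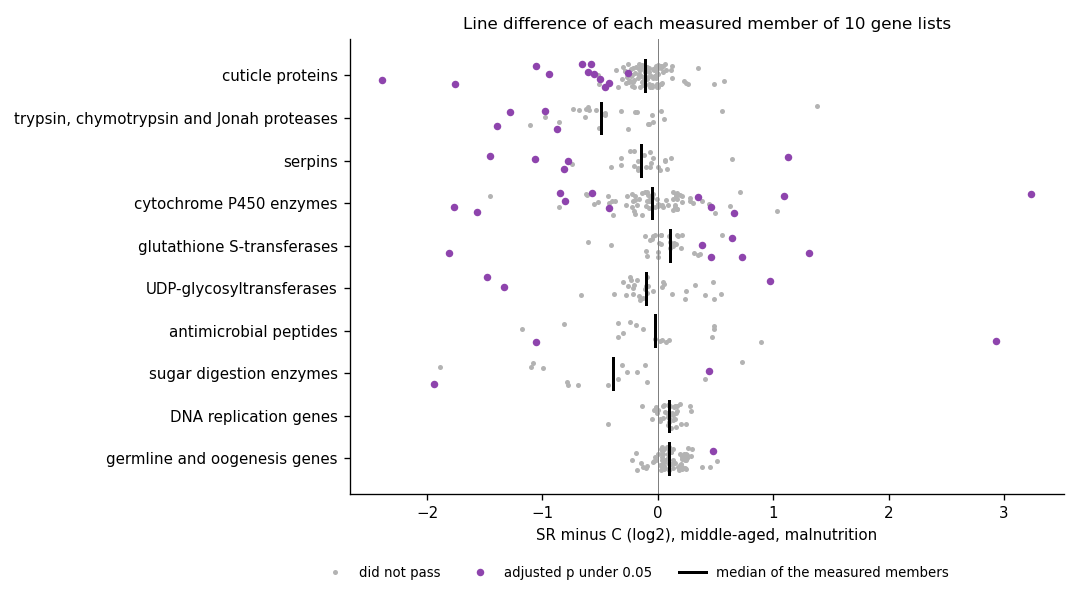
Line difference (SR minus C, log2) of every measured member of 10 gene lists in middle-aged flies on malnutrition; purple points passed at an adjusted p under 0.05, grey points did not, black bars are list medians, and vertical scatter has no meaning. The 12 cuticle genes and the 4 digestive proteases that passed lie on the lower side, while P450 and glutathione S-transferase genes passed on both sides.

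The list of digestive proteases, which does not hold the higher CG17234 above, had calls in the lower direction. Of 30 measured trypsin, chymotrypsin and Jonah genes 4 were lower (13.3%, against 2.2% of all genes), none was higher and 26 did not pass. Differences below 0 were found for 26 of the 30 (86.7%, against 47.3% of all genes), with a median of -0.49. The protease yip7 had 10.60, 10.04, 10.52 and 10.01 against 11.99, 12.11, 11.13 and 11.08 (-1.28 ± 0.29, adjusted p = 0.00441). The abundant trypsin alphaTry had 11.45 to 12.31 against 12.53 to 13.38 (-0.87 ± 0.25, adjusted p = 0.0437), and Jon65Aii (-1.39 ± 0.40) and Ser7 (-0.97 ± 0.24) were lower too. Without C replicate 2, 2 members of the list were called lower, and without SR replicate 4 there was 1. Of the 4 only yip7 passed in every fit without 1 array, the highest adjusted p of the others being 0.252, 0.0823 and 0.238 for Jon65Aii, Ser7 and alphaTry. The midgut markers, 11 of whose 14 measured genes are also in the lists of proteases, sugar digestion enzymes and lipases, had array means of 8.09 to 8.64 in SR flies and 8.45 to 9.18 in C flies, the groups overlapping. Of these genes 1 passed (alphaTry, 7.14% of the list, against 4.11% of all genes), and the part of midgut RNA in the result was not tested.

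Enzymes of sugar digestion had a list median of -0.39, with 15 of 18 measured members below 0 (83.3%, against 47.3% of all genes). Besides Mal-A3, 1 member passed, and in the opposite direction: Mal-A5, with 10.16 to 10.30 against 9.67 to 9.94 (0.45 ± 0.09, adjusted p = 0.00200). On overfeeding the list median was -0.95, with 9 members called lower and 2 higher (2.34% and 3.43% of all genes). It was -0.36 in old flies on malnutrition, with 6 called lower and 1 higher (2.22% and 2.14% of all genes). On optimal food it was -0.50, with 1 called lower and 1 higher (10.3% and 10.5% of all genes). None of 5 lipases of the fixed list and of 8 Npc2 sterol-binding genes passed (list medians 0.05 and -0.25), the lipase gene CG6295 above not being in the list. Among serpins, inhibitors of serine proteases, 4 of 28 were lower and 1 higher (17.9% called, against 4.11% of all genes), and the lower ones were 1 to 5 without 1 array. Spn43Aa had 3.85, 3.91, 3.86 and 4.23 against 5.09, 6.16, 4.99 and 5.43 (-1.45 ± 0.22, adjusted p = 1.83e-05), and Spn31A was higher, with 7.49 to 8.19 against 6.41 to 7.09 (1.13 ± 0.19, adjusted p = 0.000142). Spn88Eb (-1.06), Spn28Dc (-0.81) and Spn43Ad (-0.78) passed with all arrays and lost the call in 4, 6 and 6 of the 8 fits without 1 array.

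The 3 families of detoxifying enzymes held calls in both directions. Of 81 cytochrome P450 genes 5 were higher, 6 lower and 70 did not pass (13.6% called, against 4.11% of all genes, median -0.05). Besides Cyp4e3, the higher ones were Cyp6a2 (1.10 ± 0.30), Cyp4d8 (0.66), Cyp305a1 (0.46) and Cyp4e2 (0.35), and the lower ones with the largest size were Cyp4d21 (-1.77 ± 0.24) and Cyp6a14 (-1.57 ± 0.19). Cyp6a14 had 5.36 to 5.63 in SR flies against 6.79 to 7.23, with differences of -1.38, -1.60 and -1.64 in the other 3 conditions, each called. The number of P450 genes called higher ran from 2 to 6 without 1 array and that called lower from 2 to 7. In the other alternatives these numbers ran from 1 to 10 and from 3 to 8.

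Of 35 glutathione S-transferase genes, whose products couple glutathione to toxins and peroxidation products, 5 were higher, 1 was lower and 29 did not pass (17.1% called, against 4.11% of all genes, median 0.10). All 5 higher ones belong to the Epsilon class. GstE5 had 5.92, 5.67, 5.75 and 5.55 against 4.51, 4.68, 4.11 and 4.34 (1.31 ± 0.19, adjusted p = 1.32e-05), and the abundant GstE6 had 11.41 to 11.58 against 10.71 to 10.96 (0.64 ± 0.09, adjusted p = 6.25e-06). GstE2 (0.73), GstE7 (0.46) and GstE1 (0.39) were higher too. Of the 5 higher genes 2 lost the call in some fit without 1 array, GstE2 in 5 of 8 fits. GstE5, GstE6 and GstE7 were neighbours among the measured genes, as were GstE1 and GstE2. The lower one was GstD5, with 3.71 to 4.20 against 5.26 to 6.63 (-1.81 ± 0.27, adjusted p = 1.54e-05). Of 35 UDP-glycosyltransferase genes Ugt35A1 (-1.48 ± 0.29, adjusted p = 0.00106) and Ugt37A2 (-1.34 ± 0.37) were lower and Ugt35C1 (0.97 ± 0.27) was higher, the last 2 not in every fit without 1 array (8.57% called, against 4.11% of all genes). Of 15 antioxidant genes 3 were lower (20%, against 2.2% of all genes): Prx6c, Prx6a (-0.38 ± 0.10, adjusted p = 0.0225, lost in 6 of 8 fits) and Gclc, the catalytic subunit of the enzyme that starts glutathione synthesis (-0.49 ± 0.08, adjusted p = 0.000114).

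The clock gene tim was lower and its fellow Pdp1 higher in SR flies. Of 12 measured clock genes these were the ones that passed (16.7%, against 4.11% of all genes). Pdp1, a transcription factor of the clock's second loop, had 9.55, 9.85, 9.62 and 9.56 against 8.36, 8.41, 8.03 and 7.90 (1.47 ± 0.33, adjusted p = 0.00542). Of tim the values were 9.02, 8.89, 8.86 and 8.70 against 9.69, 10.15, 9.19 and 9.65 (-0.80 ± 0.19, adjusted p = 0.00857), the call being lost without C replicate 2 (adjusted p = 0.0766). Hours of sampling are not given in the sources used here, and clock genes change over the day.

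Few genes of growth, translation and energy metabolism passed on this diet, on which few of all genes did (4.11%). None of 39 DNA replication genes, 57 mitosis genes, 32 aminoacyl-tRNA synthetases, 31 genes of insulin, TOR and adipokinetic signalling, 13 genes of the tricarboxylic acid cycle, 20 autophagy genes, 31 vacuolar ATPase subunits and 18 eggshell genes passed, against 4.11% of all genes called in either direction. Lists of this size hold few calls at that share, so a count of none says little about them. Of 75 germline genes 1 was higher (1.33%), capu, which nucleates actin in the oocyte (0.48 ± 0.10, adjusted p = 0.00145). Of 41 cytosolic ribosomal protein genes 1 was lower (2.44%, RpL7-like, -0.31), and of 71 mitochondrial ones 2 were lower (2.82%, mRpL33, -0.40, and mRpL48, -0.33). Of 72 oxidative phosphorylation subunits 2 were higher (2.78%, ND-B8, 0.73, and COX7AL, 0.36), both dim with SR means of 5.23 and 3.58. Both lost the call in some fit without 1 array, ND-B8 without SR replicate 4 (adjusted p = 0.0501).

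Single members of other lists passed, where 4.11% of all genes did, and single calls say little about lists of this size. Called were 2.5% of 40 proteasome genes, 3.45% of 29 lipid synthesis genes and 3.03% of 33 genes of the secretory pathway. Of 24 genes of glycolysis and gluconeogenesis 4.17% passed, and of 20 genes of fatty acid breakdown 10%. Among 15 chaperones and among 15 yolk and storage genes the share was 6.67%. The stress chaperone Hsp68 was higher (0.64 ± 0.19, adjusted p = 0.0431), as were Prosbeta2R2, a testis form of a proteasome subunit (1.5 ± 0.43), Agpat3 of lipid synthesis (0.27 ± 0.08), Had2 of fatty acid breakdown (1.12 ± 0.24) and Sec24CD of the secretory pathway (0.28 ± 0.08). Lower were fbp, the fructose bisphosphatase of gluconeogenesis (-0.80 ± 0.24), Acox57D-d, a peroxisomal acyl-CoA oxidase (-0.49 ± 0.13), and the storage protein receptor Fbp1 (-0.80 ± 0.19). Of these 8 only Had2 passed in every fit without 1 array. Of 49 odorant-binding protein genes Obp56d was higher (1.19 ± 0.26) and Obp69a lower (-1.41 ± 0.28), a share (4.08%) near that of all genes, and of 166 chemoreceptor genes Ir75a was lower (-0.79 ± 0.12, with 3.58 to 3.97 against 4.10 to 4.94). No member passed of the Turandot, imaginal disc growth factor and metallothionein lists, with 5, 6 and 10 measured genes. At the 4.11% of all genes these lists are too short for a count of none to say much.

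Among markers of cell types, the photoreceptor list had a median of -0.41, with 10 of 14 genes below 0 (71.4%, against 47.3% of all genes) and 1 called (Cpn, calphotin, -0.67 ± 0.17). The called share of that list was 7.14%, against 4.11% of all genes. The neuron list had a median of -0.07, with Nrg (1.32 ± 0.26), a cell adhesion protein, higher and the GABA receptor gene Rdl (-0.64 ± 0.17) lower (8.33% called). Muscle (TpnC41C, -0.88 ± 0.23) and haemocytes (NimB1, -0.72 ± 0.18) had 1 lower gene each of 21 and 22 (4.76% and 4.55% called, near the 4.11% of all genes). Of 31 male genes Acp63F passed (1.49 ± 0.38), on values of 4.58, 3.38, 6.84 and 4.10 in the SR arrays against 3.16 to 3.37, and not without SR replicate 3 (adjusted p = 0.161). The calls of Cpn, TpnC41C, Rdl and NimB1 were each lost without C replicate 2 and without 1 or 2 other arrays, with adjusted p-values of up to 0.143. No gene of the follicle cell, female germline, Malpighian tubule and spermatheca lists passed, with 15, 10, 6 and 3 measured genes. At 4.11% of all genes called, a count of none in lists of this size says little. Among their genes Cp15 (-1.59 ± 1.08) and Send2 (1.97 ± 0.76) had no overlap between the lines, with wide standard errors.

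Many of these differences between the lines were found on other foods and at old age too. The arrays of those conditions did not enter the group means compared on malnutrition at middle age. They did enter the shared fit that set the spread of each probe set. Calls in different conditions are therefore not independent, since a probe set with a small spread is called more readily in each. Of the 647 calls, 320 were also called in old flies on malnutrition, all in the same direction, which is 49.5% of the 647 and 47.0% of the 681 called there (3.59% of all probe sets). On overfeeding 241 were called in the same direction and 1 in the opposite one, 37.2% of the 647 and 28.5% of the 847 called there (4.47%). On optimal food, where 3165 probe sets were called (16.7%), 275 were called in the same and 17 in the opposite direction, 42.5% of the 647 and 8.69% of the 3165. The numbers called there moved by more than 1.5 times without 1 array: on optimal food to 1713 without SR replicate 4 and 1892 without C replicate 2, on overfeeding to 395 without SR replicate 4, 503 without C replicate 2 and 512 without C replicate 3, and in old flies to 1201 without SR replicate 1 and 448 without C replicate 2. In all 4 conditions 151 were called in the same direction, 92 higher and 59 lower in SR flies. In the other 3 conditions 203 were not called at all, 85 of them higher and 118 lower.

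**Figure D3:**
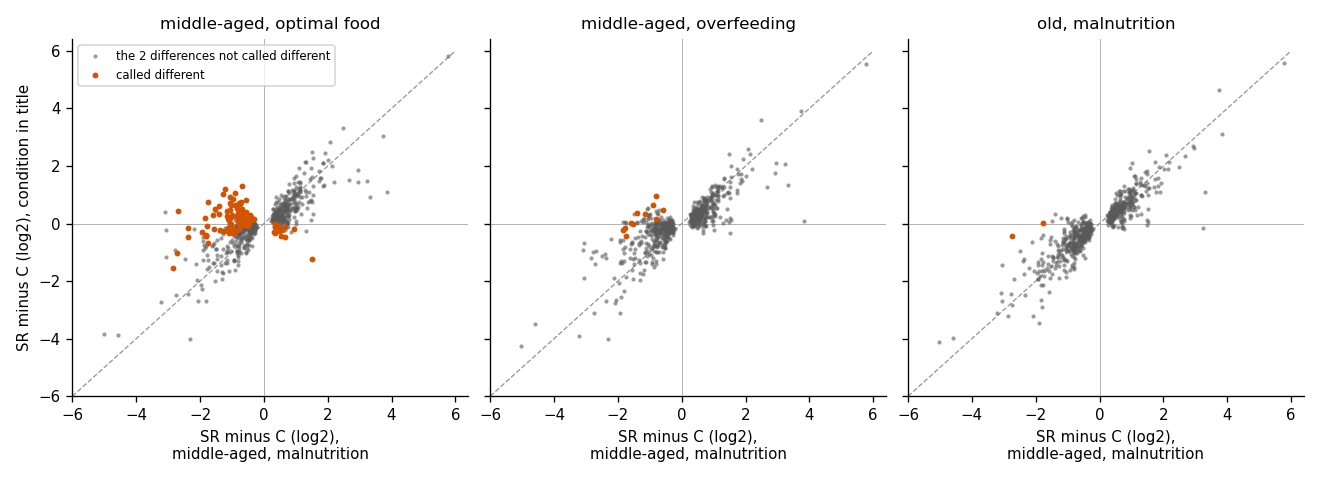
Line difference (SR minus C, log2) of the 647 called probe sets in middle-aged flies on malnutrition (horizontal axes) against that on optimal food, on overfeeding and in old flies on malnutrition (vertical axes); the dashed line marks equal differences, and orange points are those for which the 2 differences were called different. Orange points are frequent on optimal food, where 102 of the 647 are called different and 90 of these are lower in SR flies on malnutrition, and rare in the other panels (11 and 2).

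Median differences of the calls were smaller in the other conditions. The median difference of the 345 lower probe sets was -0.77 on malnutrition at middle age, -0.55 in old flies on malnutrition, -0.26 on overfeeding and -0.20 on optimal food, while for the 302 higher ones it was 0.64, 0.50, 0.39 and 0.46. Both lists were chosen on the arrays of middle-aged flies on malnutrition, which favours larger values there, and the change in the medians was not tested. The median level of the 345 in C flies was 6.81 on malnutrition at middle age and 6.55 at old age, against 6.24 on optimal food and 6.25 on overfeeding. In SR flies it ran from 5.56 to 5.75 over the 4 conditions.

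A test of the difference between the line difference on malnutrition and that on optimal food, both at middle age, called 404 probe sets (2.13%), 112 with a higher and 292 with a lower SR minus C difference on malnutrition. This test shares the 8 malnutrition arrays with the comparison above. Its count moved with single arrays: it was 64 without C replicate 2 on malnutrition, 81 without C replicate 2 on optimal food, 93 without SR replicate 4 on optimal food and 1253 without C replicate 3 on malnutrition. It was between 123 and 226 without C replicate 1 or 4 or any SR replicate on malnutrition, or without C replicate 4 on optimal food. Against overfeeding 19 probe sets differed (0.1%), 3 higher and 16 lower, with 8 to 63 without 1 array, and against old age on malnutrition 5 did (0.0264%), with 2 to 11 without 1 array.

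Among the named genes whose line difference changed between malnutrition and optimal food, Acsx3 and Pdh turned their order. Acsx3, of the acyl-CoA synthetase family, was lower in SR flies on malnutrition, with 6.65, 7.02, 6.68 and 7.23 against 8.09, 8.34, 7.94 and 8.08 (-1.22 ± 0.25, adjusted p = 0.00157), and higher on optimal food, with 7.45, 7.98, 8.03 and 7.40 against 6.09, 6.62, 6.86 and 6.48 (1.21, also called). The groups did not overlap on either food, and the change of -2.42 between the foods passed (adjusted p = 0.000200). Pdh, a dehydrogenase of the visual cycle, had 8.90 ± 0.44 against 10.18 ± 0.49 on malnutrition and 10.10 ± 0.29 against 9.06 ± 0.24 on optimal food (n = 4 each), a change of -2.32 (adjusted p = 0.00282). Its difference was -1.90 in old flies on malnutrition. BomBc3, another Bomanin, changed by -2.84 (adjusted p = 0.0283, lost in 7 of 16 fits without 1 array), with 11.06 ± 0.72 against 12.12 ± 0.44 on malnutrition and 11.10 ± 1.24 against 9.32 ± 0.70 on optimal food.

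CG16772 had the widest change, -3.12 (adjusted p = 0.0125), with 7.90, 7.99, 6.08 and 6.19 in SR flies against 10.91, 8.70, 8.74 and 10.59 in C flies on malnutrition, and means of 8.14 and 7.71 on optimal food. The non-coding CR33942 changed by -2.28 (adjusted p = 0.00532). In the other direction Nxf3, of the same family of export factors as nxf2, changed by 2.73 (adjusted p = 0.0135): it was higher in SR flies on malnutrition (7.48 ± 0.50 against 5.98 ± 0.30) and lower on optimal food (5.93 ± 0.69 against 7.15 ± 0.67). CG33111 (1.62), wdb, a regulatory subunit of the phosphatase PP2A (1.56), CG12728 (1.53) and CG4849 (1.52) followed, each losing the call in 8 to 12 of 16 fits without 1 array.

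**Figure D4:**
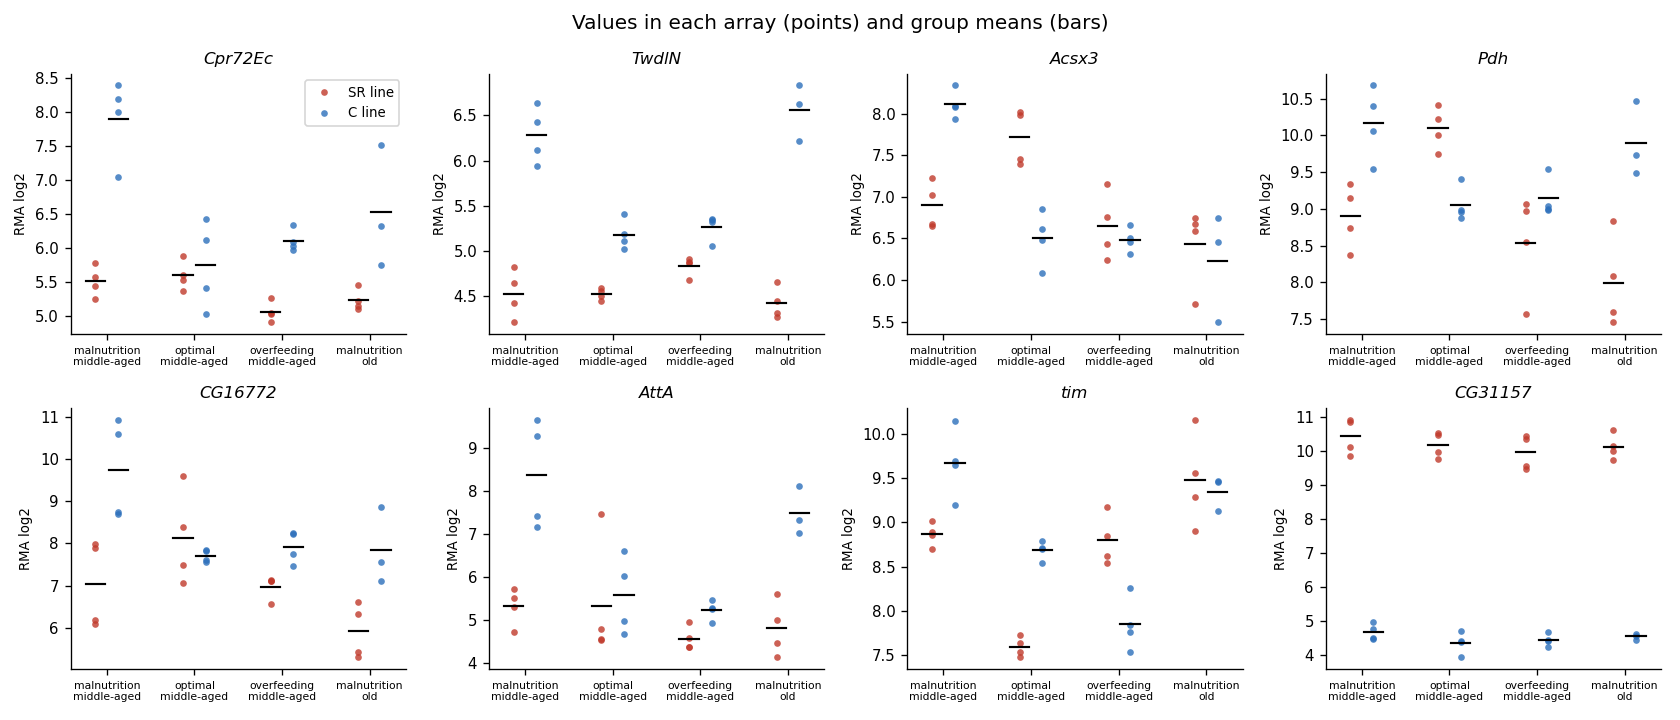
RMA log2 values of 8 genes in SR flies (red) and C flies (blue) in 4 conditions; points are arrays (4 per group, 3 for old C flies on malnutrition), bars are group means, and the vertical axes differ between panels. Cpr72Ec, TwdlN and AttA are highest in C flies on malnutrition, Acsx3 and Pdh turn their order between malnutrition and optimal food, and the lines are 5.53 to 5.83 apart for CG31157 in the 4 conditions.

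Cuticle genes were also called in the test against optimal food. Of the 104 measured 10 had a lower SR minus C difference on malnutrition and none a higher one, against 1.93% and 0.701% of all genes, and 7 of the 12 cuticle genes called lower on malnutrition were among these 10. The 12 were chosen on the 8 malnutrition arrays that this test also uses, which favours such an overlap. Such calls were not particular to cuticle genes. Of 14 photoreceptor markers 6 and of 19 antimicrobial peptide genes 4 had a lower difference on malnutrition in this test. So did 3 of 24 neuron markers and 3 of 28 serpins, and no member of these lists had a higher one. Cpr72Ec had means of 5.60 ± 0.21 in SR and 5.76 ± 0.64 in C flies on optimal food and of 5.07 ± 0.15 and 6.11 ± 0.16 on overfeeding, against 5.52 ± 0.22 and 7.91 ± 0.60 on malnutrition. Its C level was therefore highest on malnutrition, with 6.53 ± 0.90 (n = 3) in old C flies on that food, and its SR level was between 5.07 and 5.60 throughout. TwdlN was at 4.42 to 4.83 in SR flies in all 4 conditions, and in C flies at 6.28 ± 0.31 and 6.56 ± 0.31 (n = 3) on malnutrition against 5.18 ± 0.17 and 5.26 ± 0.14 on the other foods. In old flies on malnutrition 12 cuticle genes were called lower in SR flies, none was higher (2.22% and 2.14% of all genes), and 9 of them were among the 12 at middle age. On optimal food, where 10.5% of all genes were higher and 10.3% lower, 6 cuticle genes were higher and 2 lower (3 and 77 after neuron centring, a scaling that moved the median of all probe sets on optimal food by -0.48).

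AttA, too, was highest in C flies on malnutrition. In C flies its mean was 8.38 ± 1.26 at middle age and 7.50 ± 0.57 (n = 3) at old age on malnutrition, against 5.58 ± 0.90 on optimal food and 5.24 ± 0.23 on overfeeding. In SR flies it was between 4.58 and 5.35 in all 4 conditions, SR replicate 4 on optimal food standing apart at 7.48. Its line difference was -0.24 on optimal food and -0.67 on overfeeding, neither called, and -2.69 in old flies on malnutrition, called. Def kept its order throughout, being higher in SR flies by 1.43 on optimal food, 1.74 on overfeeding and 2.7 in old flies on malnutrition, each called.

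Against overfeeding, the gene with the widest change was CG5246, a trypsin-like protease gene, at -4.06 (adjusted p = 0.0462, lost in 12 of 16 fits without 1 array). On malnutrition it was near 5 in both lines, and on overfeeding it was at 10.67 ± 0.97 in SR flies and 6.49 ± 0.77 in C flies. CG3348 had no called difference on malnutrition (8.30 ± 0.39 against 8.14 ± 0.47) and was higher in SR flies on overfeeding (10.10 ± 0.42 against 7.50 ± 0.49), a change of -2.43 (adjusted p = 0.00240). The clock gene tim was lower in SR flies on malnutrition, as given above, and higher on overfeeding (8.80 ± 0.29 against 7.85 ± 0.30), a change of -1.75 (adjusted p = 0.00128). On optimal food it was lower by 1.09, as on malnutrition, with 7.59 ± 0.11 against 8.68 ± 0.10.

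Further genes were lower on malnutrition and close in both lines on overfeeding. The gene frm was at 6.99 to 7.37 in SR flies and 8.06 to 9.01 in C flies on malnutrition (-1.60 ± 0.18, adjusted p = 3.22e-08) and at 7.36 ± 0.18 and 7.33 ± 0.26 on overfeeding, a change of -1.63 (adjusted p = 0.00128). CG15254, an astacin metalloprotease gene, was at 4.25 to 4.76 against 5.64 to 6.62 on malnutrition (-1.77 ± 0.23) and at 4.45 ± 0.10 and 4.62 ± 0.32 on overfeeding, a change of -1.61 (adjusted p = 0.0208). Changes in the other direction were found for TpnC4, a troponin C of flight muscle (1.62), CG1503 (1.27) and CG12998 (1.23). Of the genes whose line difference changed between middle and old age on malnutrition, CG15263 was at 6.44 ± 0.38 in middle-aged C flies, 4.29 ± 0.09 (n = 3) in old C flies and near 3.8 in SR flies at both ages, a change of 2.30 (adjusted p = 0.000113). CG11425 (-2.19) and CG16926 (-2.12, both adjusted p = 0.0339) changed the other way, and they lost the call in 9 and 8 of 15 fits without 1 array.

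Medians of some gene lists differed in sign between the conditions. Medians of the DNA replication and mitosis lists were 0.10 and 0.10 on malnutrition at middle age, -0.44 and -0.41 on optimal food, -0.29 and -0.25 on overfeeding and 0.09 and 0.04 in old flies on malnutrition. On optimal food 21 of 39 DNA replication genes and 23 of 57 mitosis genes were lower in SR flies, where 10.3% of all genes were, and none on malnutrition, where 2.2% were. The test of the change between these foods called none of the 39 DNA replication genes. It called 3 of the 57 mitosis genes, all with a higher difference on malnutrition (0.701% of all genes). The antimicrobial peptide median was -0.03 on malnutrition at middle age, 0.44 on optimal food, 0.23 on overfeeding and -0.35 in old flies on malnutrition. Of these 19 genes the test against optimal food called 4, all with a lower difference on malnutrition (1.93% of all genes). Medians of the digestive proteases were -0.49 and -0.47 on malnutrition at both ages, -0.21 on optimal food and 0.18 on overfeeding, and of the 30 proteases 4 were called higher on overfeeding and 1 on optimal food (3.43% and 10.5% of all genes) and none lower (2.34% and 10.3%). No protease was called in the test of the change between malnutrition and overfeeding, which called 3 higher and 15 lower of all 11982 genes. Neuron centring moved the median of all probe sets by -0.31 on overfeeding and by -0.11 in old flies, and with it the antimicrobial peptide medians became -0.04 and -0.08 on optimal food and overfeeding, that of the proteases on overfeeding -0.12, and those of DNA replication and mitosis in old flies -0.02 and -0.07. With ribosomal protein centring 4 DNA replication and 5 mitosis genes were called lower on optimal food.

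**Figure D5:**
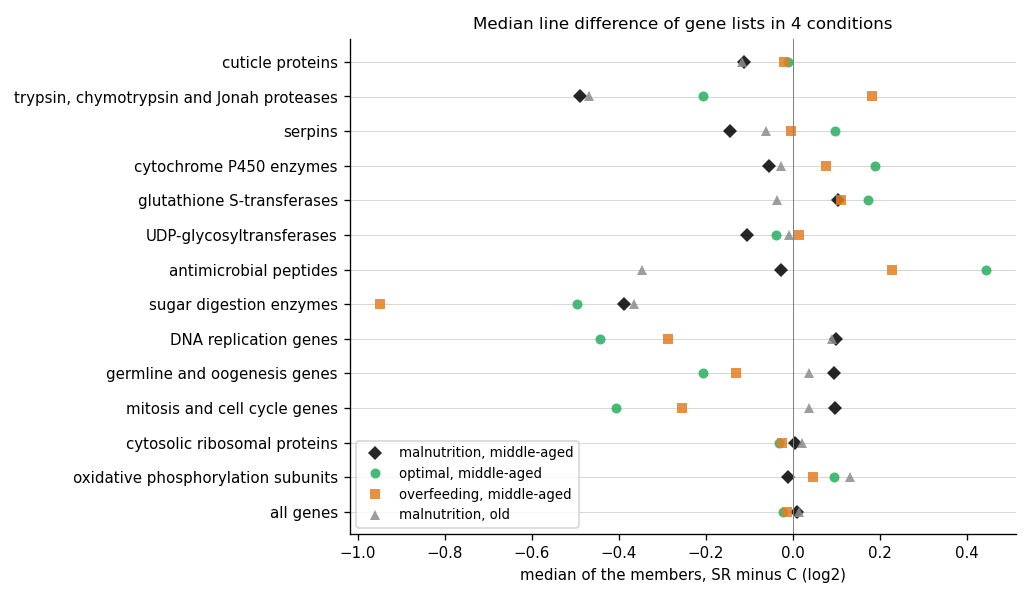
Median line difference (SR minus C, log2) of the measured members of 13 gene lists and of all genes in 4 conditions (symbols). DNA replication and mitosis genes lie near 0.10 on malnutrition at middle age and at -0.44 and -0.41 on optimal food, and digestive proteases at -0.49 on malnutrition and 0.18 on overfeeding, while all genes lie within 0.03 of 0.

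Some called genes lay beside others called in the same direction. Of 227 genes higher in SR flies with a known place in the genome 25 (11%) had a neighbour among the measured genes that was also higher, against 3.76% of all measured genes, and of 263 lower ones 29 (11%) had a lower neighbour, against 4.35%. The longest rows were of 3 genes: GstE5, GstE6 and GstE7, higher, and CG13492, CG34040 and CG4363, lower by 1.10, 1.89 and 2.10. Pairs included CG31157 with CG7966, Cpr72Ec with Cpr72Eb (-0.51), TwdlL (-0.58) with TwdlO (-0.66), yip7 with CG10477 (-1.14) and CG16772 with CG13965 (-1.13), chosen here after their values were seen. Duplicated neighbours can share sequence that probes read alike, which was not tested.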

How the data were processed

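Whole-body RNA of pools of 5 virgin females was hybridised to Affymetrix Drosophila Genome 2.0 arrays. Per the labels and the study's methods, the authors left out 2 arrays of poor quality and summarised the rest with RMA in R 2.7.0, and the deposited values are on the log2 scale (18952 probe sets, 46 arrays, no missing value). RMA equalises the distribution of values between arrays, so a shift shared by most genes is already removed. Array values carry no read depth, and the number of arrays limits the precision.

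The platform annotation gave 1 symbol for 13647 probe sets and several for 402, and did not list 4903. Of those with 1 symbol, 13544 matched a RefSeq gene, and 11982 genes were measured, each represented by its probe set with the highest mean. Coordinates are not given, since the build of the array design is not given in the sources used here. The values were not normalized again. Group means and contrasts were estimated by lmFit and tested by eBayes (limma 3.58.1, R 4.3.3; two-sided, Benjamini-Hochberg), and counts were taken in Python 3.11.15 with pandas and numpy. The fit was tested on simulated data with known differences.

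The genes named are the 15 largest differences in each direction among calls with 1 symbol, no overlap between the 4 SR and 4 C arrays and a mean of at least 6 in the higher group, up to 4 called members of each of 37 lists (and any member that a count of 5 or fewer singles out), the 5 largest of each test of a difference between conditions, and genes the study names. Members and lists were chosen with earlier results of these data known. The study's replicate numbers do not mark a shared batch in the sources used here. Alternatives were a replicate block, a fit of only the arrays compared, a mean of at least 5, 3 other centrings, a variance trend with robust moderation, array weights, the germline mean as a covariate, and leaving out single arrays. Leaving out the control probe sets and arrays of the other conditions was added after seeing the data.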

Additional observations from a re-analysis of the deposited data

Results flagged for a closer look

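Among the 30 genes with the largest differences, 60 groups of 4 arrays were searched for an array far from the other 3, a search that flags about 1 group in 20 by chance, and 3 were found. In SR replicate 4, nxf2 was at 7.26 against 8.05 to 8.20 in the other SR arrays. In SR replicate 2, CG9360 was at 7.47 against 7.76 to 7.81. In SR replicate 3, CG5568 was at 6.75 against 4.13 to 4.31. All 3 values lay on the SR side of every C array.

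Of the 30 genes, 4 had a line difference that was called different in another condition (limma, adjusted over all probe sets). Of all probe sets 2.13% were called so against optimal food, 0.1% against overfeeding and 0.0264% against old age. The 30 were chosen on arrays that these tests also use, which favours such calls. Between malnutrition and optimal food, the SR minus C difference changed by -1.72 for CG15263, by -3.12 for CG16772, by -2.24 for Cpr72Ec and by -1.93 for CG15096. Between middle and old age on malnutrition, CG15263 changed by 2.30 (adjusted p = 0.000113).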

How the results depend on the processing

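The number of calls between the lines on malnutrition at middle age, 647, was 1169 with array weights, 1110 with the germline mean as a covariate, 326 with ribosomal protein centring, and between 438 and 695 in the other alternatives. Leaving out single arrays gave 454 to 683. On optimal food 3165 became 13855 with neuron centring and 1777 with ribosomal centring, and 1713 to 3196 without 1 array. On overfeeding 847 became 2182 with array weights and 432 with ribosomal centring, and 395 to 1025 without 1 array. In old flies 681 became 2017 with array weights, 1350 with the germline covariate, 108 in a fit of only the arrays compared and 364 with ribosomal centring, and 448 to 1201 without 1 array. The line difference that changed between malnutrition and optimal food (404) was called for 2329 probe sets with array weights, 67 with the germline covariate, 798 at a mean of at least 5, 107 with neuron centring, 1910 in a fit of only the arrays compared and 139 with ribosomal centring, and for 64 to 1253 without 1 array. Against overfeeding (19) the number was 228 with array weights, 30 with median centring and 54 in a fit of only the arrays compared, and 8 to 63 without 1 array. Against old age (5) it was 15 with array weights, 21 with the germline covariate, 3 at a mean of at least 5, 8 with median centring and 2 in a fit of only the arrays compared, and 2 to 11 without 1 array. The replicate block gave 661 calls on malnutrition at middle age and 3 against old age. Samples with the same number did not deviate together in every pair (correlations of 0.13, 0.24, -0.17 and 0.32). Pairs with different numbers had correlations of -0.39 to 0.27. So few pairs cannot decide whether the numbers mark a shared batch. The differences of 4 genes without a call changed sign without single arrays: CG5246 (-0.19 to 0.36), CG3348 (-0.066 to 0.35), CG12998 (-0.072 to 0.13) and CG11425 (-0.51 to 0.070). The causes were not tested. Of the 30 genes with the largest differences, 29 kept their call in every alternative, and CG14757 lost it in 6 fits without 1 array. Leaving out the control probe sets, added after seeing the data, gave 650 calls. Levels near the low end of the scale, as those of many cuticle genes, lie close to background and limit what their differences can show.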
